A study of Mus musculus with 27 samples.

Results

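The 10 genes of MHC class I antigen processing described here were chosen by name from the 22524 genes counted in each library. They were the heavy chains H2-K1 and H2-D1, the light chain B2m, the peptide-loading genes Tapbp, Tap1 and Tap2, the immunoproteasome subunits Psmb8, Psmb9 and Psmb10, and the transactivator Nlrc5. The study asked whether the microbiota of the donor mouse leaves a lasting mark on small intestinal epithelial organoids, and how organoids compare with cell lines. RNA was sequenced in 27 libraries, of which 18 came from organoids, 6 from m-ICc12 and 3 from MEF. Organoids, which are three-dimensional epithelial cultures grown from crypts of the distal jejunum, came from young adult male C57BL/6J wild-type mice. The donors were 3 cohoused littermates from each of the specific pathogen-free (SPF) facilities SR and SE and 3 from a germ-free (GF) facility, with 1 culture per mouse. Organoid cultures had been frozen and thawed before the experiment. Every organoid culture contributed a pair of libraries, one labelled untreated and the other TNF-treated. m-ICc12 is an immortalised mouse small intestinal epithelial line whose mouse strain is not given in the sources used here, and it contributed 3 libraries per label. TNF was given at 5 ng/mL for 8 h, and the medium of untreated controls was exchanged. MEF are C57BL/6 mouse embryonic fibroblasts with 3 libraries, all labelled untreated. Nothing in the labels says that the m-ICc12 or the MEF libraries came from separately started cultures, so p-values there measure the spread between these libraries, which may be technical.

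MHC class I molecules show peptides from inside the cell to CD8+ T cells. The proteasome cuts proteins into peptides, the transporter made of Tap1 and Tap2 carries them into the endoplasmic reticulum, and tapasin (Tapbp) holds an empty heavy chain with its light chain B2m beside the transporter until a peptide binds. Inflammatory signals are known to induce the heavy chains and the immunoproteasome subunits, which replace constitutive catalytic subunits, through NF-kB, interferon-regulatory factors and Nlrc5.

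The treatment labels and the codes in the names of the deposited files disagreed in both libraries of all 12 organoid and m-ICc12 cultures. All directions below follow the labels. The NF-kB target genes Nfkbia, Tnfaip3, Nfkb2 and Relb, which TNF is known to induce, went against the labels. The library labelled TNF-treated had the lower value of each in 9 of 9 organoid cultures and in 3 of 3 m-ICc12 pairs. The 2 libraries of an m-ICc12 pair share only a replicate number, which is what culture M1, M2 or M3 means below. For Nfkbia the log2 difference lay between -2.80 and -2.41 in the organoid cultures. The study names Nfkb2, Tnfaip3 and Relb among the transcripts that TNF changed, and reports Nfkb2 protein as raised. Which treatment a library received was not tested in any other way. If the file codes are right, every direction between the labels below is reversed. The organoid and m-ICc12 libraries labelled untreated, used below to compare systems and facilities, would then be the TNF-treated ones. Total counts lay between 6071103 and 43843615 per library, so that 3 counts correspond to 0.0657 to 0.523 CPM (counts scaled to library size by TMM). The lowest total belonged to the m-ICc12 library of culture M1 labelled TNF-treated. The 8 intestinal epithelial markers summed to between 1637 and 2361 CPM in organoids and to between 18.5 and 46.1 CPM in m-ICc12, which is labelled as intestinal epithelium. The 6 epithelial markers summed to 5789 to 7048 CPM in organoids, 1555 to 2139 in m-ICc12 and 16.8 to 19.9 in MEF. These markers did not move together in m-ICc12 labelled untreated against MEF (edgeR, adjusted p under 0.05). Krt8 and Krt18 were higher (log2 8.21 and 8.64) and Krt19 was lower (log2 -2.24). Epcam (log2 1.55), Cdh1 (log2 0.0025) and Cldn7 (log2 0.52) did not pass. The 7 fibroblast markers summed to 12.3 to 32.1 CPM in organoids, 1849 to 3009 in m-ICc12 and 5790 to 6970 in MEF. In m-ICc12 of either label, 3 of these 7 were above 3 counts in any library. Vim did not differ between m-ICc12 labelled untreated and MEF (log2 -0.02, adjusted p = 0.919, edgeR). Col1a1, Col1a2, Col3a1, Pdgfrb and Pdgfra were lower in m-ICc12, with log2 fold changes between -11.3 (Col1a1) and -5.34 (Pdgfra). The 10 lymphoid and myeloid markers summed to at most 15.4 CPM in organoids, with ranges that overlapped between the labels, and to between 65.3 and 139 CPM in m-ICc12. In m-ICc12 labelled untreated 7 of these 10 markers were at 0 in all libraries, and the sum was carried by Csf1r, at 64.6 to 107 CPM.

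Of the 10 members, 7 lie in the MHC on chromosome 17 (GRCm38, GENCODE vM21). From the lowest coordinate these are Tapbp (chr17:33915899-33929292, plus strand), H2-K1 (chr17:33996017-34000347, minus), Psmb9 (chr17:34181987-34187764, minus), Tap1 (chr17:34187553-34197225, plus), Psmb8 (chr17:34197721-34201454, plus), Tap2 (chr17:34203527-34216321, plus) and H2-D1 (chr17:35262730-35267499, plus). Psmb9, Tap1, Psmb8 and Tap2 lie within 34.3 kb that hold 5 counted genes, and the Psmb9 and Tap1 genes overlap by 212 bases on opposite strands. B2m lies at chr2:122147686-122153083 (plus), Psmb10 at chr8:105935735-105938444 (minus) and Nlrc5 at chr8:94434356-94527272 (plus). The labels call the library kit stranded, but whether the counting used strand is not given in the sources used here, so counts in the overlap of Psmb9 and Tap1 are uncertain. Heavy-chain genes are near copies of each other and the treatment of reads with several matches is not stated, so the split of reads between H2-K1, H2-D1 and the H2-Q and H2-T genes is uncertain as well.

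Promoter windows from 250 bases before to 50 bases after the start were given for 8 of the 10 members. Those of 3 members held the NF-kB consensus on either strand, as did 5.8% of 32851 windows. The 250 upstream bases of these 3 members are shown because the heavy chains share the same match, and those of Tapbp because it differed most between the labels among the members called. Sequences are from RefSeq (GRCm38.p6), 5′ to 3′ on the strand of the gene, with matches in capitals: the NF-kB consensus and, in B2m, also a pair of GAAA runs 2 bases apart. The RefSeq starts of H2-D1 and Tapbp differ from the GENCODE gene starts given above, so their upstream bases lie inside the GENCODE genes. H2-K1 had another RefSeq start, whose window holds the same match and is not shown. B2m is at chr2:122147437-122147686 (plus strand), H2-K1 at chr17:34000348-34000597 (minus), H2-D1 at chr17:35262844-35263093 (plus) and Tapbp at chr17:33919228-33919477 (plus).
B2m: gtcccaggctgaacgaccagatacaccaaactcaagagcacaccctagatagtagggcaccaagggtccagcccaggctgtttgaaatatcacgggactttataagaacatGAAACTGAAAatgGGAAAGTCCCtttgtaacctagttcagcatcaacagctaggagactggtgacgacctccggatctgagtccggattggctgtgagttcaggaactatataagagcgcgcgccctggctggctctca
H2-K1: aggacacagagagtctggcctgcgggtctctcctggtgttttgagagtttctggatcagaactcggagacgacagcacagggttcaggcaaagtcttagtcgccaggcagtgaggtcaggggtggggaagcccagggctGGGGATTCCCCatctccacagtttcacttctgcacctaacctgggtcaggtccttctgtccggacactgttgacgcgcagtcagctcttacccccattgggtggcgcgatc
H2-D1: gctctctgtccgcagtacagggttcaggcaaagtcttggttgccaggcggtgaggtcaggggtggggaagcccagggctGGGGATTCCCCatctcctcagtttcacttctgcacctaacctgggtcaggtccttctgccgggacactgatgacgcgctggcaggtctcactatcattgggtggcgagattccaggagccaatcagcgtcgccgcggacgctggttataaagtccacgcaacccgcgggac
Tapbp: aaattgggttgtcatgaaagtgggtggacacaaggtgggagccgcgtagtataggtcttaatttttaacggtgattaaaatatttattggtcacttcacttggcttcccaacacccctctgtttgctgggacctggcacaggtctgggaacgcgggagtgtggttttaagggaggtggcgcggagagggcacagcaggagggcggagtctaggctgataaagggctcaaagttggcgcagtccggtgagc

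H2-K1 and H2-D1 shared the same 11-base match, and the longest identical run of their upstream windows was 47 bases. The GAAA pair, an element of interferon-stimulated genes, was found in B2m alone of the 8 members and in 3.44% of all windows. CCAAT was found in 6 of the 8 members, against 37.4% of all windows, and TGACG, part of the cyclic AMP element, in 5 of the 8, against 20.8%. The RefSeq starts of Psmb9 and Tap1 are 226 bases apart on opposite strands, so their upstream windows share 225 bases. The CCAAT match of Psmb9 and Tap1 is the same site in these shared bases, as is their TGACG match. Each such site is counted for both genes. Such matches describe letters and not binding.

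Levels were compared between genes as CPM per kilobase of transcript. In organoids labelled untreated the heavy chain H2-K1 (486 ± 60.9, SD, n = 9) and the light chain B2m (481 ± 32.4) were highest, with overlapping ranges. H2-D1 followed at 129.6 ± 22.6, then Psmb10 at 47.5 ± 10 and tapasin at 40.4 ± 7.67, whose ranges overlapped. Tap1 (6.35 ± 2.01), Psmb9 (2.47 ± 0.583), Tap2 (2.17 ± 1.0) and Psmb8 (1.07 ± 0.989) were far lower, and Nlrc5 was near 0. In m-ICc12 and MEF B2m came first, at 171 ± 24.2 and 281 ± 9.86 (SD, n = 3) in libraries labelled untreated. H2-K1 stood below B2m, Tapbp, Psmb10 and H2-D1 in m-ICc12, at 8.81 ± 2.04, with a range that overlapped that of H2-D1, and below B2m and H2-D1 in MEF, at 34.1 ± 2.78, where its range overlapped that of Tapbp. The summed level of H2-K1 and H2-D1 over that of B2m, per kilobase, was 1.28 ± 0.166 in organoids labelled untreated, 0.109 ± 0.026 in m-ICc12 and 0.327 ± 0.019 in MEF.

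**Figure D1:**
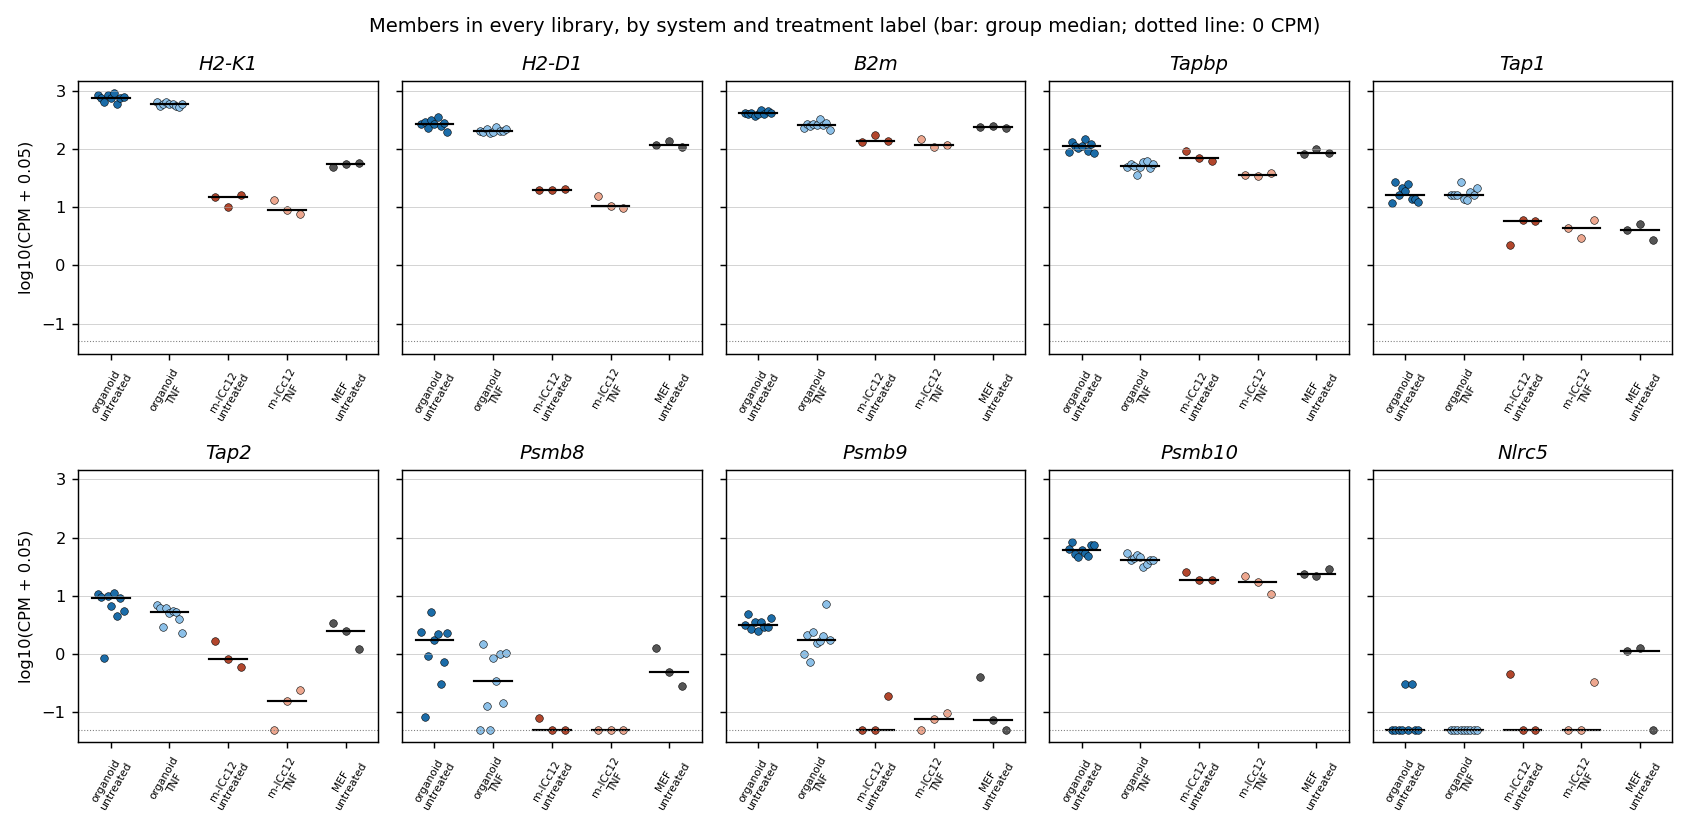
Level of each of the 10 members in all 27 libraries by system and treatment label, on a log scale. Points are libraries. H2-K1 lies between 532 and 899 CPM in organoids and at or below 16.4 CPM in m-ICc12, while Nlrc5 is at 0 in most libraries.

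In organoids, 5 of the 9 members tested had a lower level under the TNF label than under the untreated label, and none was higher (edgeR quasi-likelihood test, Benjamini-Hochberg adjusted p under 0.05). They were Tapbp, B2m, H2-K1, H2-D1 and Psmb10. Nlrc5 was not tested because its counts did not pass the filter. Of all 12104 genes tested, 1.26% were called lower, 0.124% higher and 1.39% in either direction. The median log2 fold change of the members tested was -0.59, and that of all genes tested was -0.000305. The members tested include Psmb8, which passed the filter only through the untreated label. In these bulk libraries fewer cells of a type and less RNA per cell cannot be told apart.

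Tapbp showed the largest of the 5 differences. It was between 85.3 and 148 CPM (median 111) in the 9 libraries labelled untreated and between 35.6 and 61.4 CPM (median 50.4) in the 9 labelled TNF-treated. The groups did not overlap, and the level was lower in 9 of 9 cultures, a 2.15-fold difference (log2 -1.10, SE 0.11, adjusted p = 2.46e-07, edgeR). B2m, the light chain common to all classical class I molecules, was between 372 and 461 CPM (median 415) in the 9 libraries labelled untreated and between 214 and 322 CPM (median 263) in the 9 labelled TNF-treated. Its groups did not overlap either, and it was lower in 9 of 9 cultures, a 1.59-fold difference (log2 -0.67, SE 0.07, adjusted p = 7.77e-07, edgeR). These were the 2 members without overlap, which held for 0.463% of all genes tested in this direction, and 3 members were lower in every culture, against 1.87% of all genes.

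The heavy chains differed less than their light chain, by value. H2-K1 was between 597 and 899 CPM (median 765) in the 9 libraries labelled untreated and between 532 and 647 CPM (median 585) in the 9 labelled TNF-treated. The ranges overlapped, but within each mouse the library labelled TNF-treated was the lower one in 9 of 9 cultures (log2 -0.39, SE 0.07, adjusted p = 0.0023, edgeR). H2-D1 was between 194 and 356 CPM (median 272) in the 9 libraries labelled untreated and between 188 and 234 CPM (median 207) in the 9 labelled TNF-treated. It was lower in 8 of 9 cultures and not in the GF culture Z919 (log2 -0.40, SE 0.09, adjusted p = 0.0117, edgeR). The call of H2-D1 was lost without culture Z909 (adjusted p = 0.0566, edgeR) or Z911 (adjusted p = 0.0626, edgeR).

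**Figure D2:**
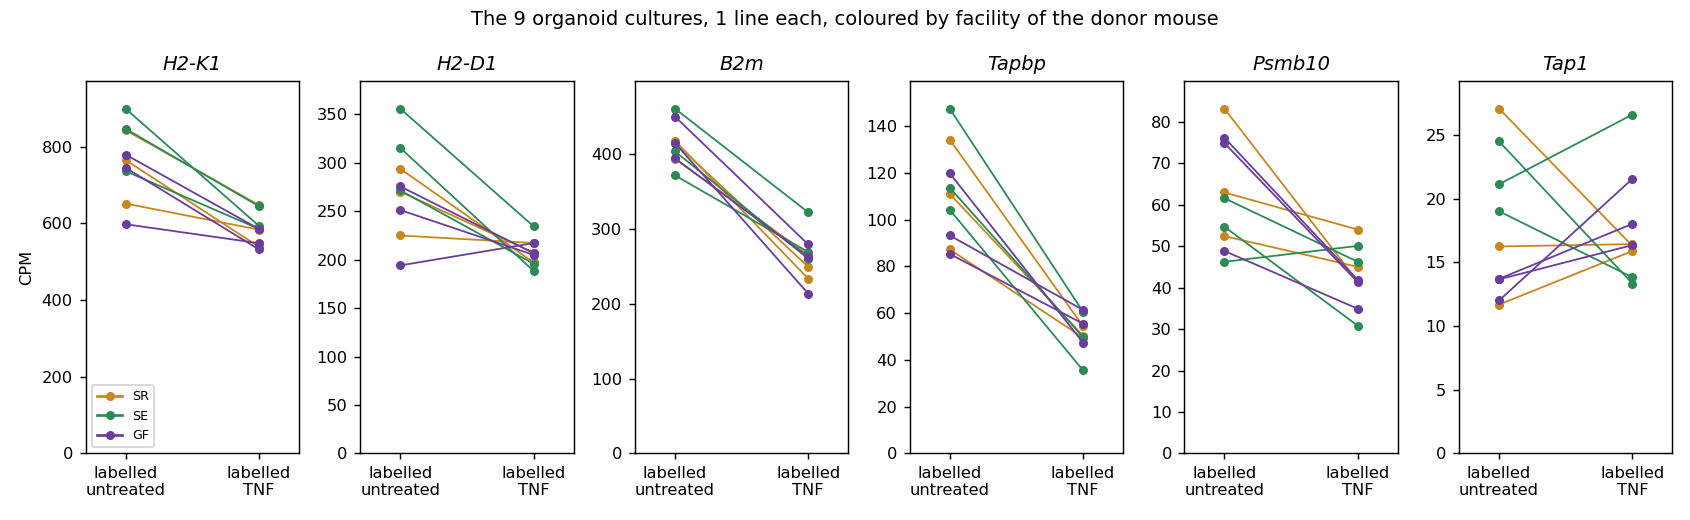
CPM of members in the 9 organoid cultures, with 1 line joining the library labelled untreated and the library labelled TNF-treated of the same mouse. All 9 lines fall for H2-K1, B2m and Tapbp, 8 fall for H2-D1 and 8 for Psmb10.

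The transporter subunits did not pass the test. Tap1 was between 11.7 and 27.1 CPM (median 16.3) in the 9 libraries labelled untreated and between 13.3 and 26.6 CPM (median 16.4) in the 9 labelled TNF-treated. It was lower in 3 of 9 cultures, and its groups overlapped (log2 -0.01, 95% interval -0.38 to 0.35, adjusted p = 0.994, edgeR). Tap2 was between 0.81 and 11.2 CPM (median 8.99) in the 9 libraries labelled untreated and between 2.22 and 6.81 CPM (median 5.31) in the 9 labelled TNF-treated. The groups overlapped (log2 -0.63, 95% interval -1.32 to 0.07, adjusted p = 0.671, edgeR), and the lowest value belonged to the SR culture Z910, where the library labelled untreated had 14 counts.

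Of the immunoproteasome subunits, Psmb10 passed the test, and Psmb8 and Psmb9 had few counts and did not. Psmb10 was between 46.2 and 83.2 CPM (median 61.6) in the 9 libraries labelled untreated and between 30.8 and 54 CPM (median 41.8) in the 9 labelled TNF-treated. The ranges overlapped, and the level was lower in 8 of 9 cultures, the exception being the SE culture Z911 (log2 -0.55, SE 0.12, adjusted p = 0.0145, edgeR). Its call was lost without culture Z909 (adjusted p = 0.0865, edgeR), Z918 (adjusted p = 0.0691, edgeR) or Z919 (adjusted p = 0.0691, edgeR), and with all 27 libraries in 1 fit (adjusted p = 0.0665, edgeR).

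Psmb9 was between 2.42 and 4.93 CPM (median 3.13) in the 9 libraries labelled untreated and between 0.678 and 7.15 CPM (median 1.69) in the 9 labelled TNF-treated. It was lower in 8 of 9 cultures, and the GF culture Z918 had the higher value under the TNF label, 7.15 against 2.89 CPM. The difference did not pass (log2 -0.59, 95% interval -1.49 to 0.30, adjusted p = 0.833, edgeR), nor did it without culture Z918 (log2 -1.08, adjusted p = 0.487, edgeR). Psmb8, with at most 140 counts in any organoid library, was between 0.0345 and 5.34 CPM (median 1.67) in the 9 libraries labelled untreated and between 0 and 1.42 CPM (median 0.3) in the 9 labelled TNF-treated. It was lower in 7 of 9 cultures with overlapping groups (log2 -1.74, SE 0.88, adjusted p = 0.584, edgeR). Psmb8 entered this test only through the untreated label, where its values were higher, so the filter favoured its direction.

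Nlrc5 was counted in only 2 of the 18 organoid libraries. Both were labelled untreated, from the SE culture Z912 and the GF culture Z917, with 8 counts each (0.261 and 0.252 CPM). All 9 libraries labelled TNF-treated had 0 counts, so that a difference was not detectable at this depth.

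**Figure D3:**
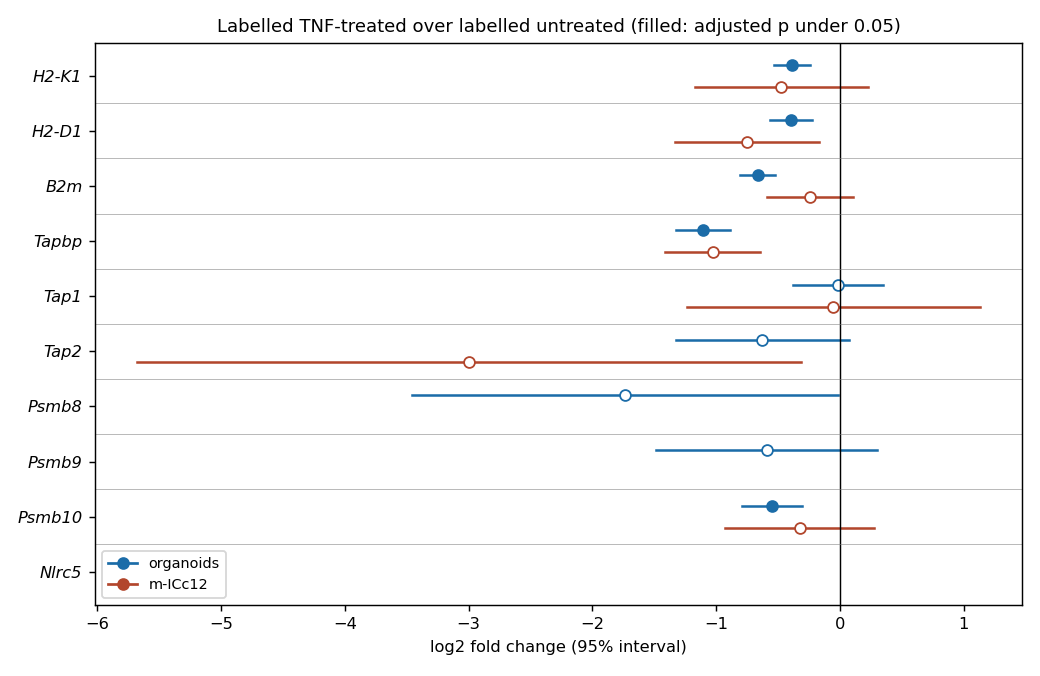
Log2 fold change of each tested member, libraries labelled TNF-treated over those labelled untreated, with its 95% interval, in organoids (9 against 9) and in m-ICc12 (3 against 3). In organoids 5 members passed an adjusted p of 0.05 (edgeR), all below 0, and in m-ICc12 0 did.

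In m-ICc12, 0 of 7 members tested passed, as did 0.11% of the 11861 genes tested (edgeR, adjusted p under 0.05). At an unadjusted p under 0.05, 3 members of 7 and 4.69% of all genes passed. These members, Tapbp, H2-D1 and Tap2, did not overlap between the labels and had the lower values under the TNF label, as did 5.59% of all genes tested. In every pair of m-ICc12 libraries with the same number 5 of 7 members were lower, against 13.3% of all genes. These pairs share only that number, so they are not matched cultures by design. Tapbp was at 92.7, 69.9 and 62.1 CPM in the libraries labelled untreated of cultures M1, M2 and M3, and at 35.4, 34.7 and 38.7 CPM in those labelled TNF-treated (log2 -1.03, SE 0.20, adjusted p = 0.069, edgeR). It passed with DESeq2 (adjusted p = 0.00107), with no filter on low counts (adjusted p = 0.00823, edgeR), with all 27 libraries in 1 fit (adjusted p = 0.0158, edgeR) and without culture M2 (adjusted p = 0.0152, edgeR).

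H2-D1 in m-ICc12 was at 19.6, 19.6 and 20.8 CPM under the untreated label and at 15.3, 10.5 and 9.8 CPM under the TNF label (log2 -0.75, SE 0.30, adjusted p = 0.996, edgeR). With all 27 libraries in 1 fit it passed (adjusted p = 0.0329, edgeR). Tap2 was at 1.61, 0.788 and 0.553 CPM against 0, 0.108 and 0.192 CPM, the last 3 values resting on 0, 4 and 4 counts, so that it entered the test only through the untreated label. B2m overlapped, with 133, 171 and 137 CPM against 148, 108 and 115 CPM (log2 -0.24, 95% interval -0.59 to 0.11). H2-K1 overlapped as well, with 14.8, 10.2 and 16.4 CPM against 13.4, 8.89 and 7.64 CPM (log2 -0.47, 95% interval -1.17 to 0.22). The shallowest library, of culture M1 under the TNF label, held 203 counts of Tapbp and 77 of H2-K1.

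The difference between the labels was compared directly between m-ICc12 and organoids. Of 9 members tested, 0 passed, against 0.159% of 13183 genes, and 2 had an unadjusted p under 0.05, against 6.5% (edgeR). For Tapbp the log2 fold changes differed by 0.06 (m-ICc12 minus organoids, 95% interval -0.38 to 0.50). For B2m they differed by 0.41 (95% interval 0.11 to 0.72, adjusted p = 0.558, edgeR).

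The donor facility gave no call among the members. In libraries labelled untreated, 0 of 9 members differed between GF and SPF organoids, where 0.0325% of 12315 genes did, and 0 of 9 between SE and SR organoids, where 0% of 12219 genes did (edgeR, adjusted p under 0.05). At an unadjusted p under 0.05 there were 0 and 0 members, against 3.99% and 3.98% of all genes, and DESeq2 called 0 members in both. B2m was at 409 ± 13.2, 412 ± 45.2 and 419.9 ± 28.2 CPM (SD, n = 3) in SR, SE and GF organoids labelled untreated, with a log2 difference of GF from SPF of 0.03 (95% interval -0.18 to 0.25). H2-K1 was at 753 ± 96.2, 827 ± 83.2 and 707 ± 96.5 CPM in the same order (log2 -0.16, 95% interval -0.41 to 0.09). Tap1 had the smallest p of the members for GF against SPF, at 18.3 ± 7.9, 21.6 ± 2.77 and 13.1 ± 0.969 CPM (log2 -0.60, 95% interval -1.19 to -0.01, adjusted p = 1, edgeR). Under the TNF label the order differed, with Tap1 at 16.2 ± 0.278, 17.9 ± 7.53 and 18.7 ± 2.66 CPM, so that GF had the highest mean. The label difference was not called as different between GF and SPF organoids for any member (0 of 9, edgeR), where 0% of 12640 genes passed, nor at an unadjusted p under 0.05 (0 members, 2.56% of genes). For Tapbp the label difference was 0.35 higher in GF than in SPF organoids on the log2 scale, with a 95% interval of -0.11 to 0.80.

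Between the systems the differences were larger. In libraries labelled untreated all 9 members tested were higher in organoids than in m-ICc12, where 31.6% of 12962 genes were called higher, 29.3% lower and 60.9% in either direction (edgeR, adjusted p under 0.05). Psmb8 and Psmb9 entered this test only through organoids, where they are higher, and Nlrc5 was not tested, so the filter favoured the direction of these members, and the count of members higher is not read as support. For 7 of them the ranges did not overlap, against 23.6% of all genes. H2-K1 was between 597 and 899 CPM in organoids and at 14.8, 10.2 and 16.4 CPM in m-ICc12, a 56.3-fold difference (log2 5.81, SE 0.20, adjusted p = 6.23e-13, edgeR). H2-D1 was 13.9-fold higher (log2 3.80, SE 0.18, adjusted p = 2.53e-11, edgeR). H2-K1 and H2-D1 vary between mouse strains, the reads were aligned to GRCm38, which is C57BL/6J, and the part of this in the low m-ICc12 values was not tested. B2m was 2.86-fold higher (log2 1.52, SE 0.11, adjusted p = 4.88e-09, edgeR).

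Among the loading genes Tap1 was 3.85-fold higher in organoids than in m-ICc12 (log2 1.95, SE 0.40, adjusted p = 0.000475, edgeR), Tap2 7.74-fold (log2 2.95, SE 0.74, adjusted p = 0.00245, edgeR) and Tapbp 1.51-fold (log2 0.59, SE 0.17, adjusted p = 0.00745, edgeR). The ranges of Tap2 and of Tapbp overlapped between the systems, and the call of Tapbp was lost without m-ICc12 culture M3 (adjusted p = 0.052, edgeR). Psmb10 was 3.07-fold higher in organoids (log2 1.62, SE 0.21, adjusted p = 4.29e-06, edgeR). Psmb9 had 800 counts over the 9 organoid libraries and 6 in the m-ICc12 libraries, and the ratio of the pooled CPM was 67.6 with a 95% counting interval of 30.9 to 185. Psmb8 had 404 counts against 1 count, a pooled ratio of 205 with a counting interval of 36.5 to 8104. These intervals cover counting error only, since PCR reads without molecular identifiers are not independent molecules.

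Against MEF, 7 of 10 members were higher in organoids and 1 was lower, where 34.6% of 13144 genes were called higher, 32.6% lower and 67.2% in either direction (edgeR, adjusted p under 0.05). For 6 members the ranges did not overlap, against 27.2% of all genes. Psmb9 is among the members higher and among those without overlap, and it entered this test only through organoids, where it is higher. Nlrc5, the member called lower, entered only through MEF. The filter favoured the direction of both, so these counts are not read as support. If the file codes are right, these organoid libraries had received TNF, while the MEF libraries are labelled untreated. System and treatment could then not be told apart in this comparison. H2-K1 was at 48.5, 55.4 and 56.7 CPM in MEF and 14.5-fold higher in organoids (log2 3.85, SE 0.15, adjusted p = 1.45e-12, edgeR). H2-D1, at 119, 137 and 107 CPM in MEF, was 2.28-fold higher (log2 1.19, SE 0.16, adjusted p = 5.56e-06, edgeR), and B2m, at 243, 249 and 232 CPM, 1.74-fold higher (log2 0.80, SE 0.09, adjusted p = 9.76e-07, edgeR). Tap1 was 4.51-fold higher (log2 2.17, SE 0.36, adjusted p = 6.57e-05, edgeR) and Psmb10 2.56-fold higher (log2 1.36, SE 0.20, adjusted p = 1.57e-05, edgeR). Tap2 was 3.2-fold higher (log2 1.68, SE 0.65, adjusted p = 0.0324, edgeR), but its ranges overlapped and its call was lost without MEF library R2 (adjusted p = 0.0774, edgeR) or R3 (adjusted p = 0.145, edgeR).

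The other members had low or similar levels in MEF. Psmb9 entered the test only through organoids, with 15, 1 and 0 counts in the MEF libraries, and had a pooled ratio of 22.5 in favour of organoids (95% counting interval 13.8 to 39.6). Psmb8 overlapped, with 1.21, 0.453 and 0.23 CPM in MEF (log2 1.46, 95% interval -0.76 to 3.69, adjusted p = 0.265, edgeR). Nlrc5 was the one member called lower in organoids, with 45, 49 and 0 counts in MEF and 16 counts in all 9 organoid libraries labelled untreated (adjusted p = 0.0388, edgeR). Nlrc5 entered this test only through MEF, the group where it is higher, because no organoid library held 10 counts, so the direction was favoured by the filter. The call was lost with DESeq2 (adjusted p = 0.263), with no filter on low counts (adjusted p = 0.0862, edgeR), without MEF library R1 (adjusted p = 0.143, edgeR) or R2 (adjusted p = 0.156, edgeR), and without any one of the organoid cultures Z909, Z910, Z911, Z913, Z918 or Z919 (adjusted p between 0.0552 and 0.0596, edgeR). Tapbp did not pass (log2 0.32, 95% interval 0.01 to 0.63, adjusted p = 0.0814, edgeR), but it did without culture Z908 (adjusted p = 0.0498, edgeR) or Z919 (adjusted p = 0.0444, edgeR). When organoid libraries of the TNF label took the place of those labelled untreated, Tapbp was lower in organoids than in MEF (log2 -0.79, adjusted p = 6.59e-05, edgeR), and B2m no longer passed (log2 0.12, adjusted p = 0.3, edgeR).

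**Figure D4:**
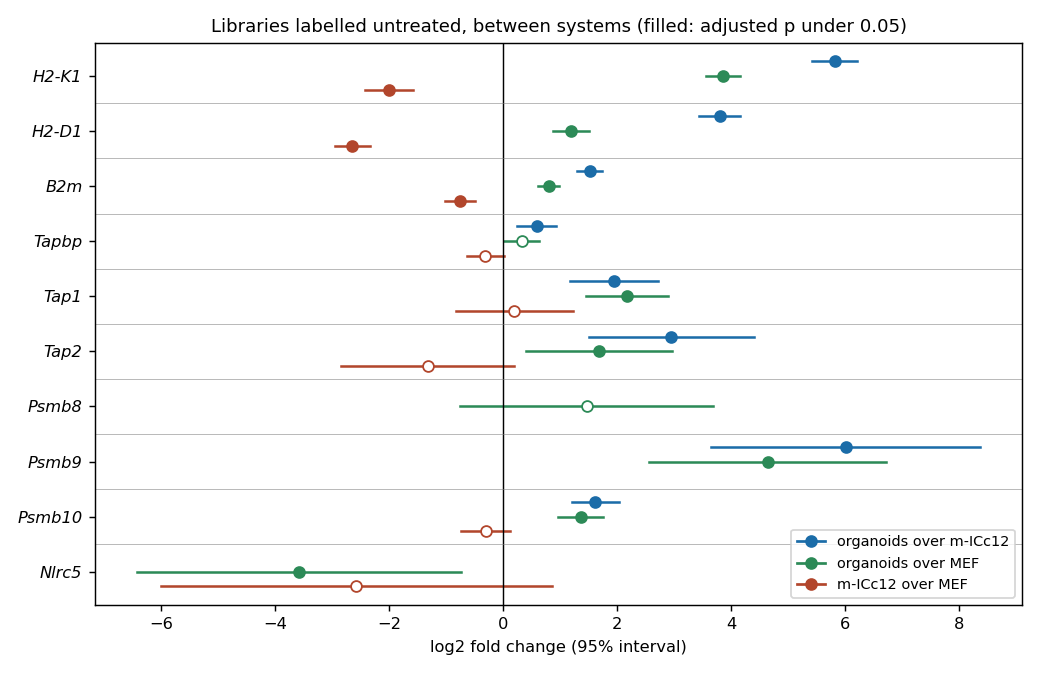
Log2 fold change of the members between the systems in libraries labelled untreated (organoids n = 9, m-ICc12 n = 3, MEF n = 3), with 95% intervals. Psmb8 is left out of the comparisons with m-ICc12 because of its 1 count there. H2-K1 has log2 differences of 5.81 for organoids over m-ICc12, 3.85 for organoids over MEF and -2.0 for m-ICc12 over MEF.

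In m-ICc12 compared with MEF, 4 of 9 members were lower and none higher, where 31.2% of 12830 genes were called lower, 28.1% higher and 59.3% in either direction (edgeR, adjusted p under 0.05). These were H2-D1 (6.26-fold, log2 -2.65, SE 0.15, adjusted p = 1.1e-08, edgeR), H2-K1 (4.0-fold, log2 -2.0, SE 0.21, adjusted p = 3.76e-06, edgeR), B2m (1.69-fold, log2 -0.76, SE 0.14, adjusted p = 0.000404, edgeR) and Psmb8. The ranges did not overlap for 4 members, against 33% of all genes. The limit given by the file codes for organoids against MEF holds for m-ICc12 against MEF too. Psmb8 had 1 count in m-ICc12 and 75 in MEF, so it entered this test only through MEF, the group where it is higher, and the filter favoured its direction. Its call was lost when m-ICc12 culture M2 (adjusted p = 0.057, edgeR), M3 (adjusted p = 0.0575, edgeR) or MEF library R1 (adjusted p = 0.131, edgeR) was left out. Tapbp did not pass (log2 -0.31, SE 0.17, adjusted p = 0.123, edgeR) but did without m-ICc12 culture M1 (adjusted p = 0.0237, edgeR), as did Nlrc5 (adjusted p = 0.0469, edgeR). Nlrc5 also entered this test only through MEF, where it is higher, so the filter favoured its direction. Culture M1 held its only counts in m-ICc12 labelled untreated (14 counts), so the call of Nlrc5 without M1 is not read as support.

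The immunoproteasome subunits take the place of Psmb5 (Psmb8), Psmb6 (Psmb9) and Psmb7 (Psmb10). As a share of each pair per kilobase of transcript, Psmb10 made up 29.4 ± 5.9% (SD, n = 9) in organoids labelled untreated and 22.7 ± 2.66% in those labelled TNF-treated. The share was 10.4 ± 1.67% and 11 ± 7.51% in m-ICc12 (n = 3 each) and 8.63 ± 0.945% in MEF. The lowest organoid library had a Psmb10 share of 18% and the highest MEF library one of 9.72%, while the shallow m-ICc12 library of culture M1 under the TNF label reached 19.6%. Psmb9 made up 1.26 ± 0.205% in organoids labelled untreated and 0.825 ± 0.602% in those of the TNF label, and Psmb8 0.965 ± 0.853% and 0.336 ± 0.379%. The log2 fold changes of the constitutive partners between the labels in organoids were -0.01 for Psmb5, -0.02 for Psmb6 and -0.05 for Psmb7, with adjusted p of 0.99, 0.981 and 0.945 (edgeR).

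**Figure D5:**
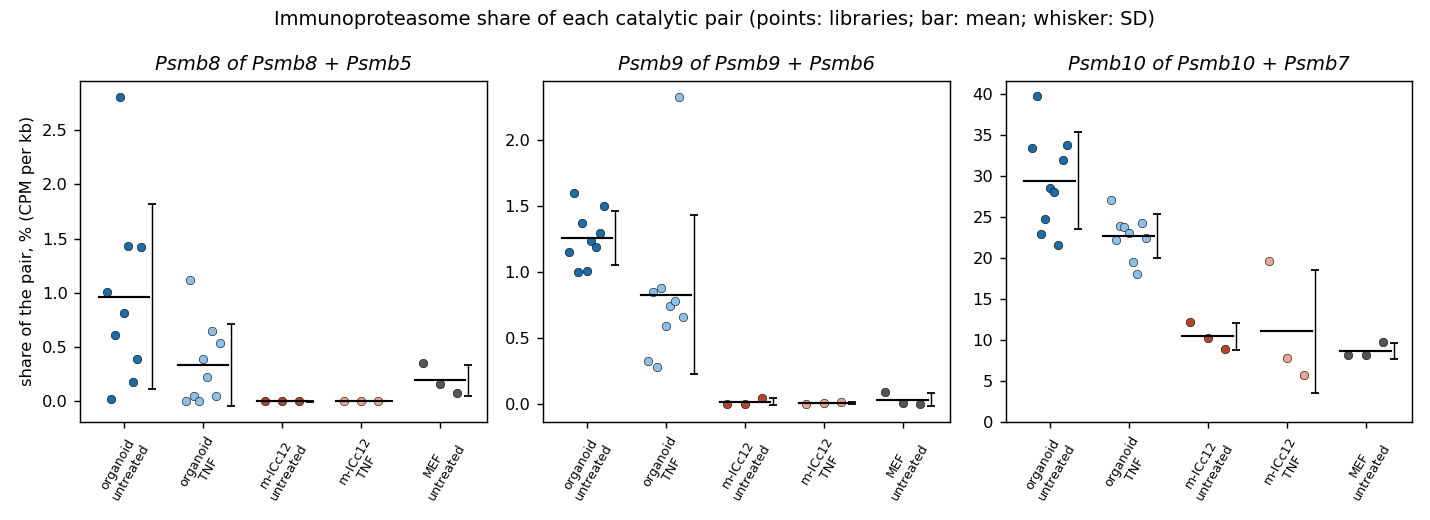
Share of each immunoproteasome subunit in its catalytic pair, in percent of the summed CPM per kilobase, by system and label. Points are libraries. Psmb10 reaches 39.7% in organoids, while Psmb8 and Psmb9 stay at or below 2.81%.

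Other genes of the pathway were read from lists that include the members. In organoids, between the labels, 5 of 16 tested heavy-chain, light-chain and class I-like genes were lower and none higher. The share of all genes called lower, 1.26%, is the background of this count and of the other list counts between the labels. Besides the 3 members these were the class I-like genes H2-Q4 and H2-M2. H2-Q4 was between 21.3 and 46.2 CPM (median 33) in the 9 libraries labelled untreated and between 12.6 and 26.2 CPM (median 18.2) in the 9 labelled TNF-treated (log2 -0.81, SE 0.16, adjusted p = 0.00438, edgeR). H2-M2 was between 0.931 and 6.34 CPM in libraries labelled untreated and at 0 counts in all 9 labelled TNF-treated, so that it entered the test only through the untreated label. Of the 12 loading and trimming genes 1 was lower (Tapbp), and the trimming peptidase Erap1 did not pass, at 107 ± 14.9 against 94.2 ± 8.51 CPM (log2 -0.19, adjusted p = 0.471, edgeR). Of the 8 immunoproteasome and activator genes 2 were lower, Psmb10 and Psme2. Psme2, a subunit of the PA28 activator, was between 109 and 162 CPM (median 136) in the 9 libraries labelled untreated and between 72.5 and 102 CPM (median 86.3) in the 9 labelled TNF-treated, without overlap (log2 -0.65, SE 0.09, adjusted p = 1.84e-05, edgeR). Of the 14 constitutive core genes 1 was lower, Psma6 (log2 -0.34, SE 0.07, adjusted p = 0.00708, edgeR).

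Of the 12 tested transcription factors of class I genes 1 was lower, Irf1, an interferon-regulatory factor. It was between 23.6 and 33.6 CPM (median 25.6) in the 9 libraries labelled untreated and between 4.16 and 14.6 CPM (median 9.88) in the 9 labelled TNF-treated, without overlap (log2 -1.39, SE 0.18, adjusted p = 1.1e-05, edgeR). Rfx5, which binds class I promoters, did not pass (log2 -0.35, adjusted p = 0.417, edgeR). In m-ICc12 0 genes of these 5 lists passed. Irf1 in m-ICc12 was at 43.4, 62.9 and 44.7 CPM under the untreated label and at 26.3, 36.5 and 35.1 CPM under the TNF label (log2 -0.60, adjusted p = 0.953, edgeR). Of the 9 class II genes 2 were tested in organoids, and Cd74, the invariant chain, was at 0 counts in all 9 libraries labelled TNF-treated and between 0.0629 and 4.0 CPM in those labelled untreated.

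Between the systems, 15 of 17 tested heavy-chain, light-chain and class I-like genes were higher in organoids than in m-ICc12, where 31.6% of all genes were, and 13 of 17 were higher than in MEF, where 34.6% of all genes were. Many of these genes, such as H2-T3 and H2-Q10, entered these tests only through organoids, where they are higher. The filter favoured their direction, so these counts are not read as support. Mr1, named next, entered only through m-ICc12 or MEF, where it is higher. Against m-ICc12 1 gene of the list was lower, Mr1, and against MEF 2 were, Mr1 and Fcgrt, both named after their values were seen. Mr1 was at 0 counts in all 9 organoid libraries labelled untreated, at 0.648 ± 0.441 CPM in m-ICc12 and at 7.57 ± 1.29 CPM in MEF. Fcgrt was at 2.85 ± 1.35 CPM in organoids and at 10.1 ± 2.03 CPM in MEF (log2 -1.80, SE 0.61, adjusted p = 0.0164, edgeR). H2-T3 was at 70.6 ± 15.6 CPM in organoids labelled untreated (SD, n = 9), at 0.0802 ± 0.0627 CPM in m-ICc12 and at 0.123 ± 0.0865 CPM in MEF (n = 3 each). H2-Q10 was at 90.1 ± 22.3, 0.1 ± 0.0152 and 0.472 ± 0.574 CPM in the same order. Of the constitutive core, 12 of 14 genes were lower in organoids than in MEF, against 32.6% of all genes. Against m-ICc12 7 of 14 were lower and 1 was higher, beside 29.3% and 31.6% of all genes. Irf1 was lower in organoids than in m-ICc12 (log2 -0.89, SE 0.16, adjusted p = 0.000135, edgeR) and than in MEF (log2 -0.93, SE 0.14, adjusted p = 2.42e-05, edgeR), opposite in direction to the heavy chains.

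Over the 18 organoid libraries, after each label's mean was taken off, Pearson's r between pairs of the 9 members other than Nlrc5 lay between -0.46 (Psmb8 with Psmb10) and 0.63 (Tapbp with H2-D1), and that of H2-K1 with H2-D1 was 0.43. For the next rankings the label means were not taken off, so r includes the difference between the labels. The genes whose log2 CPM was most like the mean z-score of the 10 members over these 18 libraries were Tnip1 (r = 0.952), Nfkbia (0.924), Gsdmd (0.919), Ikbke (0.916) and Zyx (0.915), among 12830 genes. Over all 27 libraries they were Ctsh (r = 0.959), Dab2ip (0.954), Pstpip2 (0.944), Mreg (0.944) and Sptssa (0.936), among 14122 genes. These correlations describe libraries that share cultures, labels and, in the second case, systems.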

How the data were processed

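RNA-seq counts per Ensembl gene were deposited by the authors as 1 file per library, with no normalization. Per the study's methods, the authors trimmed adapters with Trimmomatic, aligned reads with STAR to GRCm38 and quantified them with GenomicRanges. The submitters' processing notes name STAR 2.5.4b and featureCounts instead, and which of these made the deposited files is not given. The strand setting and the handling of reads with several matches are not given in the sources used here. Of 22524 genes, 22214 were named through GENCODE vM21. The members and the gene lists were chosen with earlier results of these data known.

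A gene was tested if at least 50% of the libraries of 1 group had 10 or more counts. The quasi-likelihood test of edgeR 4.0.16 (R 4.3.3) with TMM was fitted over all genes of the groups compared, and calls had a Benjamini-Hochberg adjusted p under 0.05. A standard error is the log2 fold change over the square root of F, and 95% intervals built from it are approximate, so that an interval can miss 0 where the p does not pass. CPM were scaled by TMM over all 27 libraries, and CPM per kilobase used the median length of coding transcripts. Groups followed the labels. The libraries of 1 organoid culture come from the same mouse, which pairs them by design. Their deviations from the group means correlated with r of 0.0608 to 0.235, and those of m-ICc12, which share only a number, with r of -0.000767 to 0.0926. Alternatives were DESeq2 1.42.0, no filter, the study's thresholds (unadjusted p up to 0.05 with an absolute log2 difference from 0.5 upward), 1 fit of all libraries, the culture as a block, the other label and leaving out each culture or library. The scripts were tested on simulated data. Other genes of the lists were named if among the 10 smallest p of those called in a comparison, or if they were fixed partners and regulators (Psmb5, Psmb6, Psmb7, Psme1, Psme2, Irf1, Rfx5, Erap1 and the TNF targets, with 1 such gene not reported here), and the 5 genes most like the members by Pearson's r were named. Total counts per library are given with the report and limit Psmb8, Psmb9 and Nlrc5 most.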

Additional observations from a re-analysis of the deposited data

Results flagged for a closer look

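Of 19 groups of 9 libraries examined for a library far from the others (gap to the nearest value over the range, against the 95% critical value of 0.493), 2 had one, where chance gives about 1 in 20. Psmb8 in the organoid libraries labelled untreated had its highest value in the SE culture Z911, at 5.34 CPM, with a ratio of 0.565. Psmb9 in the organoid libraries labelled TNF-treated had its highest value in the GF culture Z918, at 7.15 CPM, with a ratio of 0.741. The tests of both genes between the labels in organoids did not pass with or without these cultures.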

How the results depend on the processing

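In organoids the count of members that differed between the labels was 5 and became 3 under the study's thresholds, which H2-K1 and H2-D1 missed by size. It ranged from 3 to 5 when 1 culture was left out, and was 5 with the culture as a replicate block, which raised the calls over all genes from 168 to 397. In m-ICc12 the count of 0 became 1 (Tapbp) with DESeq2 and with no filter, 2 with all 27 libraries in 1 fit, 3 under the study's thresholds, and 0 to 1 when 1 culture was left out; with the replicate block it was 0. The difference of the label effect between m-ICc12 and organoids gave 1 member (Tap2) under the study's thresholds and 0 with the block. The replicate block changed no other call of a member. Tapbp in organoids against MEF reversed, from log2 0.32 to -0.79, in libraries labelled TNF-treated. Counts over all genes moved by more than 1.5 times in small sets of calls: 168 to between 352 and 397 in organoids by label, 13 to between 6 and 445 in m-ICc12 by label, 21 to between 6 and 748 for the difference between them, 4 to between 2 and 313 for GF against SPF, 0 to between 1 and 376 for SE against SR, and 0 to between 1 and 273 for the difference of the label effect by GF origin. Shares taken from CPM and not per kilobase moved to 2.03% (Psmb8) and 2.11% (Psmb9) in organoids labelled untreated and to 0.415% (Psmb8) and 9.64% (Psmb10) in MEF. With Spearman's rho, 0 of the 5 genes most like the members over all libraries remained and 2 of 5 over organoids. The cause of these changes was not tested. Members with few counts (Psmb8, Psmb9, Nlrc5 and, in m-ICc12, Tap2) were limited by depth.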
